A study of Danio rerio with 19 samples.

Results

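Expression of 10 zebrafish genes that regulate or build cartilage and bone was followed across 19 RNA-sequencing libraries of sorted pharyngeal arch cells and control cells. The members were chosen by name, without collagens: the transcription factor genes sox9a, sox9b, sox5, sox6, runx2a, runx2b and runx3, and the matrix genes hapln1a, matn4 and acana. They are 10 of the 31953 genes in the deposited table, and all 10 were found. Levels are given as TPM, transcripts per 1000000, a unit that is already divided by gene length, so levels may be compared between genes, and that is scaled to the total of its library.

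The pharyngeal arches are segments of the embryonic head whose neural crest cells form the jaw and gill skeleton. Cartilage cells arise there when Sox9 switches on matrix genes with Sox5 and Sox6 as partners, and Runx2 directs later cartilage maturation and bone formation. Zebrafish kept a pair of Sox9 genes and a pair of Runx2 genes from an ancient genome duplication. Aggrecan, the large chondroitin sulfate proteoglycan of cartilage encoded by acana, is fixed to hyaluronan by link proteins such as Hapln1, and matrilins bridge matrix fibres.

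All cells came from embryos at 36 hours post-fertilization (hpf) unless stated. The arch groups sorted by another reporter with sox10 were hand2-sorted wild-type cells (2 libraries) and dlx5a-sorted wild-type cells (1 library), and the titles of these groups do not name fli1a. All other arch groups carried fli1a and sox10 reporters and were sorted for both. They were genotyped edn1-/- mutants (2 libraries), which lack Endothelin 1, and wild type, called all-arch (3 libraries). Controls sorted from wild-type embryos were fli1a-only cells (3 libraries), which the labels call a mixed source with vasculature, and sox10-only cells, which the labels call a mixed source with ear. The 3 sox10-only libraries are labelled 20, 28 and 36 hpf, so stage and library number coincide in that group. Groups of 1 library were jag1b-/- and jag1b+/+ arches, both genotyped, and heat-shocked arches with hsp70I:Gal4 driving UAS:Edn1, driving UAS:Nicd (the active part of Notch), or alone. The hsp70I promoter is a heat-shock promoter that is not specific to a cell type.

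The altered genes were examined first. In edn1-/- arches edn1 was at 0 and 0.246 TPM, against 0.136 to 0.549 TPM in all-arch cells, a range too low to check the label. It was at 20.9 TPM with UAS:Edn1, against 1.37 TPM with Gal4 alone. The level of jag1b was 5.85 TPM in jag1b-/- arches and 31.6 TPM in jag1b+/+ arches, and notch1a was at 40.9 TPM with UAS:Nicd, against 4.30 TPM with Gal4 alone. All 10 arch neural crest markers examined were above 1 TPM in every library. Their summed level was 2105 to 40163 TPM in arch libraries, 832 to 1216 TPM in fli1a-only libraries and 876 to 1032 TPM in sox10-only libraries. The highest sum was in hand2-sorted replicate 1, where hand2, itself a marker here, was at 34428 TPM. Globin transcripts took 31.3%, 61.5% and 22.7% of TPM in the fli1a-only libraries, which lowers all other genes there. Depth is unknown because TPM keeps none. In such bulk libraries, fewer cells of a type and less RNA per cell cannot be told apart.

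The members differed widely in level. Of the 10, 6 were at 1 TPM or more in all 19 libraries (sox9a, sox9b, sox5, sox6, hapln1a and matn4). The most abundant was hapln1a, with a median of 643 TPM over the libraries. Acana reached 1 TPM in 6 libraries and runx3 in 2. Both Runx2 genes stayed under 1 TPM in all 19.

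**Figure D1:**
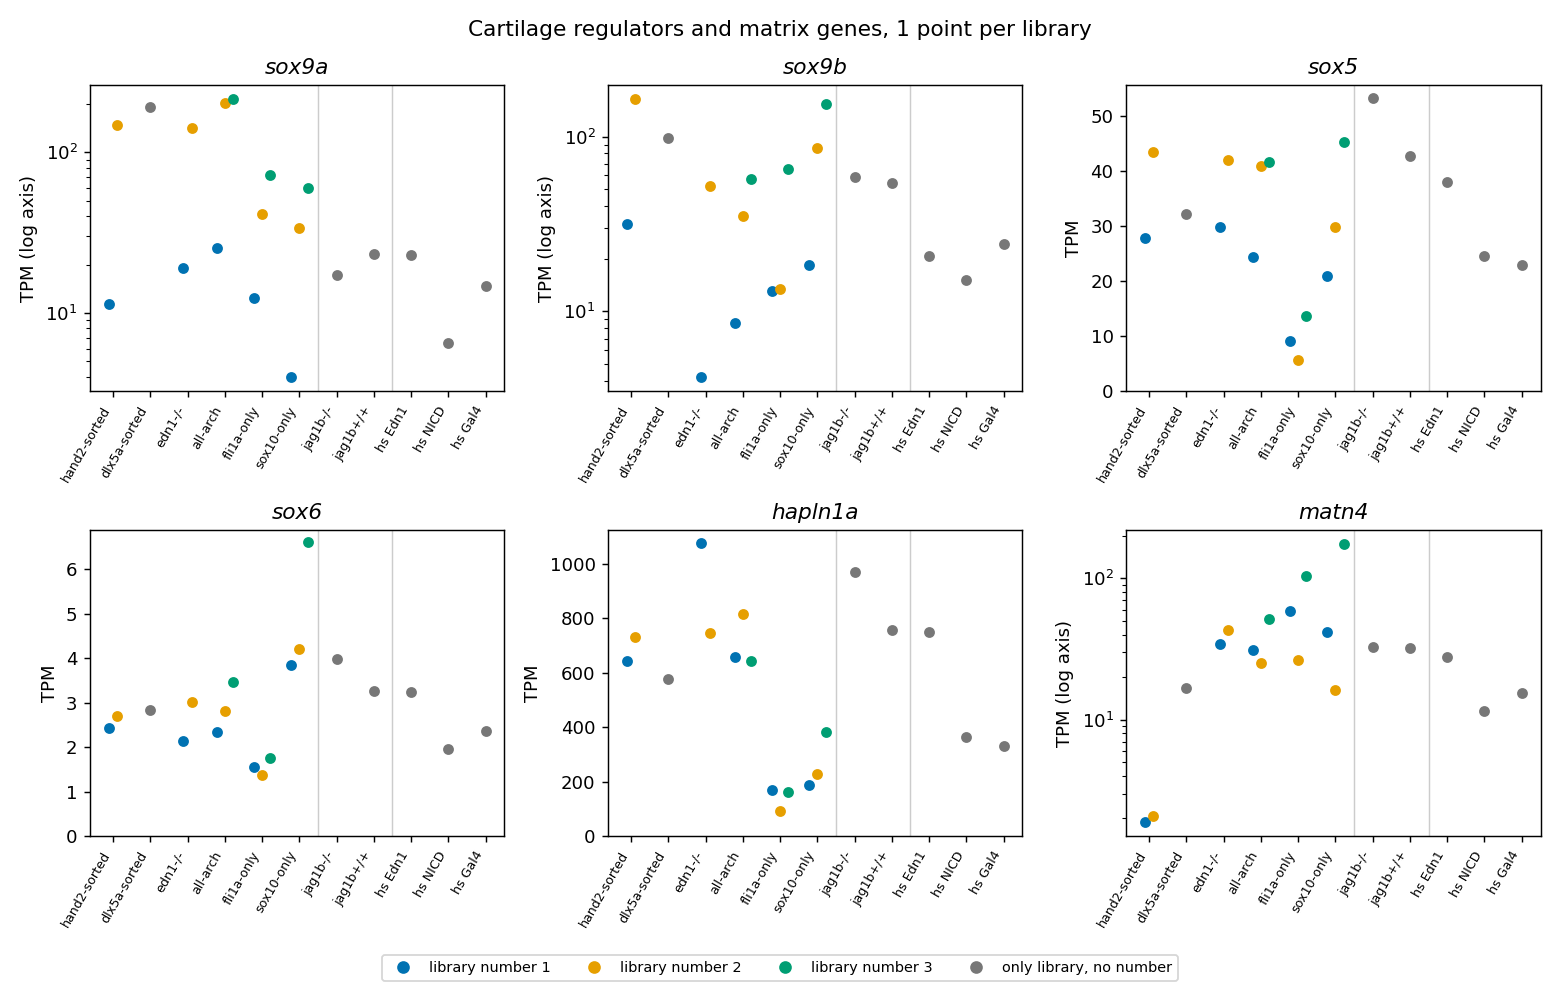
TPM of the 6 members present at 1 TPM or more in every library, 1 point per library. Groups lie along the horizontal axis, and colours give the number in the library title. Hapln1a lies between 92.8 and 1075 TPM, matn4 drops to 1.87 and 2.08 TPM in hand2-sorted cells, and sox9a is low in the libraries numbered 1.

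Sox9a and sox9b encode the Sox9 factors, the chondrogenic master regulators. In hand2-sorted cells sox9a was at 11.4 and 148 TPM, in the dlx5a-sorted library at 193 TPM, in edn1-/- arches at 19.1 and 141 TPM, and in all-arch cells at 25.4, 203 and 215 TPM. It was at 12.4, 41.5 and 72.5 TPM in fli1a-only cells and at 3.96, 33.8 and 60.3 TPM in sox10-only cells from 20 to 36 hpf. In each of these replicated groups the low value belongs to the library numbered 1, and the groups overlap.

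Its paralog sox9b was at 31.6 and 164 TPM in hand2-sorted cells, 97.4 TPM in dlx5a-sorted cells, 4.19 and 52.2 TPM in edn1-/- arches and 8.58, 35.1 and 57.5 TPM in all-arch cells. The control sorts had 13.04, 13.42 and 65.2 TPM (fli1a-only) and 18.3, 86.3 and 153 TPM (sox10-only, from 20 to 36 hpf). Sox9b was therefore also lowest in the library numbered 1 of each group, but its highest values lay in hand2-sorted and sox10-only cells, whereas those of sox9a lay in all-arch cells.

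Libraries numbered 1 were set against the other libraries of their own group over all-arch, fli1a-only, hand2-sorted and edn1-/- cells, 10 libraries in all, in a comparison added after the pattern was seen. Sox9a differed by a log2 of −2.82 (SE 0.30) and sox9b by −2.19 (SE 0.47), as a description with no p, since these genes prompted the split. Of the 13434 genes tested, limma called 8.9% lower and 2.46% higher in libraries numbered 1, and sox9a stood at place 45 in the order of falls. Sox5, sox6, hapln1a and matn4 had differences of −0.44, −0.19, 0.16 and −0.10. The labels do not say what the numbers stand for. Of the unnumbered libraries, sox9a was at 193 TPM in dlx5a-sorted cells, but at 6.49 to 23.3 TPM in the 5 jag1b and heat-shock libraries. In the order of the deposited columns, the libraries numbered 1 and these 5 come first, all with sox9a at or below 25.4 TPM. The dlx5a-sorted library comes after them with those numbered 2 and 3, all at or above 33.8 TPM. The labels do not say what this order stands for.

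**Figure D2:**
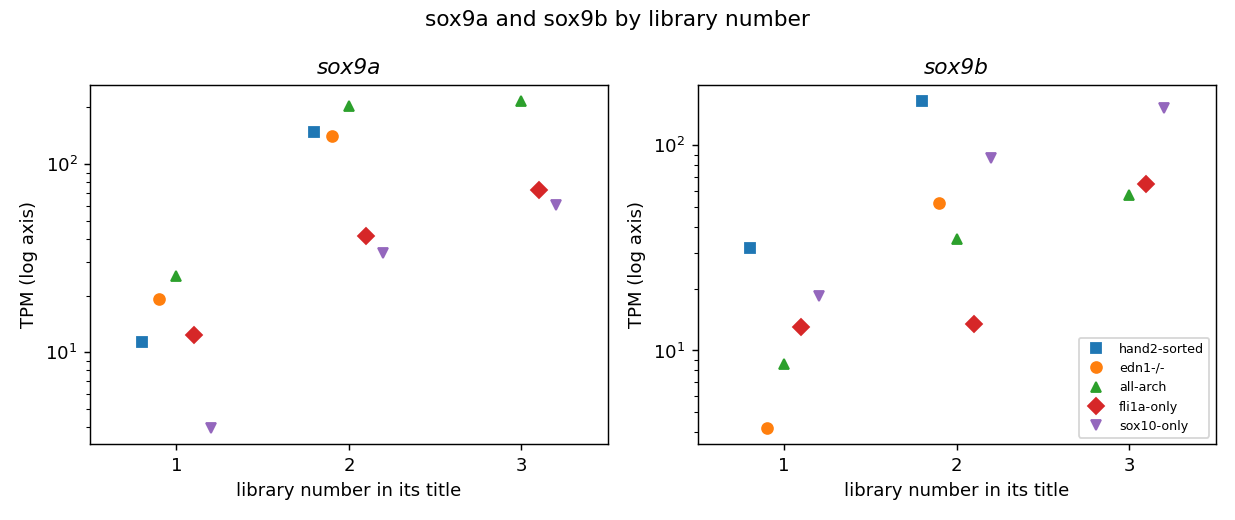
TPM of sox9a (left) and sox9b (right) on a log axis against the number in the library title, with 1 symbol per group. Every symbol for sox9a at number 1 lies at or below 25.4 TPM, and in each group the library numbered 1 is the lowest for both genes.

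The log2 ratio of the paralogs within a library was taken on TPM + 1, as was that of sox5 to sox6 below. Library scaling cancels in it except through the added 1, which matters most at low levels. The log2 ratio of sox9a to sox9b was −0.78 ± 0.88 in hand2-sorted cells (SD, n = 2), 0.98 in the dlx5a-sorted library, 1.69 ± 0.38 in edn1-/- arches (SD, n = 2) and 1.95 ± 0.52 in all-arch cells (SD, n = 3). Among controls it averaged 0.55 ± 0.88 for fli1a-only and −1.54 ± 0.37 for sox10-only libraries (SD, n = 3 each). Sox9a thus exceeded sox9b in every all-arch and edn1-/- library, and sox9b exceeded sox9a in every hand2-sorted and sox10-only library. The difference in the log2 ratio was 3.49 between all-arch and sox10-only cells, whose libraries do not overlap (exact 2-sided permutation test, p = 0.1, the smallest that 3 against 3 libraries allows, and 0.133 adjusted over 4 ratio tests). Between all-arch and fli1a-only cells it was 1.40 (exact p = 0.2). With 1 library a group, the log2 ratio was −1.70 in jag1b-/- and −1.18 in jag1b+/+ arches, and 0.13 with UAS:Edn1, −1.11 with UAS:Nicd and −0.68 with Gal4 alone. In jag1b+/+ and Gal4 arches, also sorted for fli1a and sox10, sox9b therefore exceeded sox9a, unlike in all-arch cells.

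Sox5 and sox6 encode the SoxD factors, which bind DNA beside Sox9 and raise its activity on matrix genes. In hand2-sorted cells sox5 was at 27.8 and 43.4 TPM, in dlx5a-sorted cells at 32.1 TPM, in edn1-/- arches at 29.7 and 41.9 TPM and in all-arch cells at 24.4, 40.8 and 41.5 TPM. It was at 9.08, 5.70 and 13.7 TPM in fli1a-only cells, below every other library, and at 20.8, 29.9 and 45.3 TPM in sox10-only cells. Its level was highest in jag1b-/- arches, at 53.2 TPM, against 42.7 TPM in jag1b+/+ arches.

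Sox6 was far lower. It was at 2.15 to 3.46 TPM in the 8 hand2-sorted, dlx5a-sorted, edn1-/- and all-arch libraries, at 1.55, 1.38 and 1.75 TPM in fli1a-only cells and at 3.84, 4.20 and 6.62 TPM in sox10-only cells. The log2 ratio of sox5 to sox6 averaged 3.21 ± 0.27 in the all-arch libraries, 1.97 ± 0.46 in the fli1a-only libraries and 2.45 ± 0.24 in the sox10-only libraries (SD, n = 3 each). The all-arch libraries overlap neither control, and both differences, 1.25 and 0.76, had the smallest exact permutation p possible, 0.1. Since sox6 was at 1.38 to 1.75 TPM in fli1a-only cells, the added 1 lowers this ratio most there and ties it to library scaling. Sox5 was the more abundant of the pair in all 19 libraries.

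The Runx genes were near the floor. Runx2a was between 0 and 0.0721 TPM over all libraries, and runx2b between 0.0129 and 0.542 TPM, with the highest value of each in a hand2-sorted library. Runx3, which acts with Runx2 in skeletal tissue in mouse, was at 0.0160 and 0.0386 TPM in hand2-sorted cells and at 0.0585, 0.273 and 0.438 TPM in all-arch cells. It was highest in the sox10-only control, at 0.155, 1.26 and 1.06 TPM from 20 to 36 hpf. None of the 3 passed the filter on low values, and values this low carry no comparison here.

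**Figure D3:**
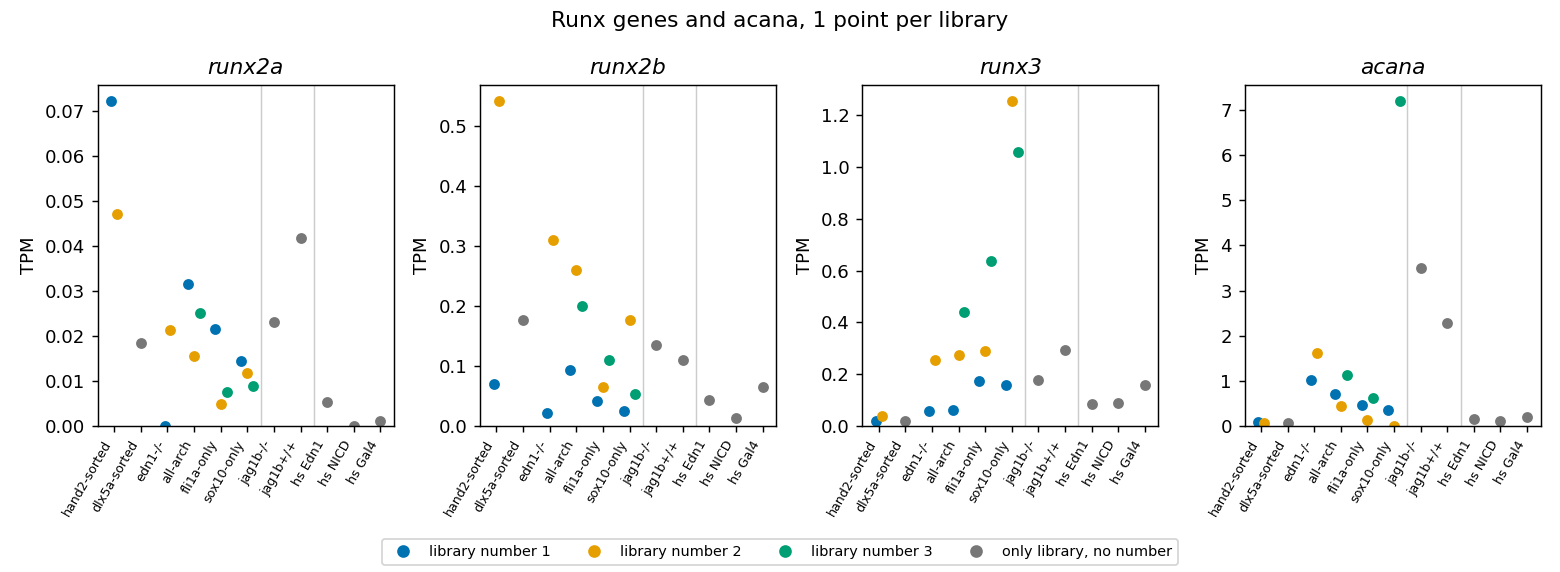
TPM of runx2a, runx2b, runx3 and acana on linear axes that differ between panels, 1 point per library, with groups along the horizontal axis. The Runx genes stay at or below 1.26 TPM, and acana is highest in the 36 hpf sox10-only library at 7.21 TPM and next in jag1b-/- and jag1b+/+ arches at 3.49 and 2.27 TPM.

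Hapln1a encodes a link protein that locks proteoglycans onto hyaluronan. It was at 643 and 731 TPM in hand2-sorted cells, 576 TPM in dlx5a-sorted cells, 1075 and 747 TPM in edn1-/- arches and 658, 816 and 644 TPM in all-arch cells. It was at 169, 92.8 and 163 TPM in fli1a-only cells and at 188, 229 and 383 TPM in sox10-only cells. Every unheated arch library lay above every control library. Among arch groups the order of means ran from jag1b-/- (969.5 TPM) through edn1-/- (911 ± 232 TPM, SD, n = 2), jag1b+/+ (759 TPM), UAS:Edn1 (748 TPM), all-arch (706 ± 95.8 TPM, SD, n = 3) and hand2-sorted (687 ± 62.3 TPM, SD, n = 2) to dlx5a-sorted (576 TPM). The edn1-/-, all-arch and hand2-sorted libraries overlap. The Nicd and Gal4 libraries came last, at 365 and 333 TPM.

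Matn4 encodes matrilin 4, an adaptor protein of the extracellular matrix. It was at 1.87 and 2.08 TPM in hand2-sorted cells and 16.8 TPM in dlx5a-sorted cells, against 34.1 and 42.8 TPM in edn1-/- arches and 31.3, 25.4 and 51.2 TPM in all-arch cells. It was at 58.6, 26.3 and 104 TPM in fli1a-only cells and at 41.4, 16.2 and 176 TPM in sox10-only cells. The hand2-sorted libraries thus lay below all 17 others. By group mean both controls lay above every arch group, but the 28 hpf sox10-only library, at 16.2 TPM, lay below every all-arch and edn1-/- library.

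Acana was at 0.0740 and 0.0594 TPM in hand2-sorted cells and 0.0557 TPM in dlx5a-sorted cells, against 1.01 and 1.60 TPM in edn1-/- arches and 0.698, 0.426 and 1.13 TPM in all-arch cells. It was at 0.457, 0.119 and 0.611 TPM in fli1a-only cells and at 0.353, 0 and 7.21 TPM in sox10-only cells from 20 to 36 hpf. Acana was lowest in the dlx5a-sorted and hand2-sorted groups by mean, whereas matn4 was lowest in the hand2-sorted group, followed by UAS:Nicd and Gal4 alone. Both peaked in the 36 hpf sox10-only library.

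That library also held the highest notochord marker level, a summed 629 TPM over 5 marker genes with noto at or near 0, against 89.0 and 22.9 TPM at 20 and 28 hpf and 3.12 to 51.6 TPM in all other libraries. Of 25 other cartilage matrix genes, 9 were at 10 TPM or more in it, and 10 had their highest value there, as did 19% of all genes above 0 in some library. The genes named next were chosen after their values were seen. In this library epyc was at 467 TPM, lect1 at 326 TPM, matn3a at 249 TPM, chad at 191 TPM, ucmab at 139 TPM and matn3b at 48.9 TPM. The aggrecan paralog acanb was at 24.0 TPM there and at most 1.85 TPM elsewhere. Fmoda and dcn averaged 429 and 132 TPM in all-arch cells, against 16.7 and 6.47 TPM in sox10-only cells. The next highest library for matn3a, after the 36 hpf one, was edn1-/- replicate 2, at 17.0 TPM, against 0.0215 TPM in edn1-/- replicate 1. The notochord markers summed to 32.0 and 6.54 TPM in the same libraries. The part of the notochord in these levels was not tested.

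All-arch cells were set against both control sorts to ask which genes mark arch neural crest. Values are differences in log2(TPM + 1), all-arch minus control, from limma with Benjamini-Hochberg adjustment over 14270 genes. The filter of a mean of 1 TPM was passed by 7 members, all but the 3 Runx genes, and acana passed it through the 36 hpf sox10-only library.

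Against fli1a-only cells, 2 of the 7 members were higher, where 4.16% of all genes tested were higher, and 0 were lower, where 2.89% were (0 at an unadjusted p under 0.05). Hapln1a was higher by a log2 of 2.35 (SE 0.40, adjusted p = 0.00399), which is 4.98-fold on the means of 706 ± 95.8 TPM in all-arch and 142 ± 42.5 TPM in fli1a-only cells. Sox5 was higher by 1.84 (SE 0.41, adjusted p = 0.0210), on means of 35.6 ± 9.66 and 9.51 ± 4.04 TPM (SD, n = 3 each). The balance of all genes turned with scaling, from 594 higher and 412 lower to 242 higher and 1027 lower with median-of-ratios rescaling and 182 and 772 with globin genes left out. The median over all genes was 0.68, so relative to the median gene hapln1a was higher by 1.67 and sox5 by 1.16. With globin genes left out, sox5 differed by 1.15 (adjusted p = 0.0752), and its call also ended without all-arch replicate 2 or 3 or fli1a-only replicate 1 or 2 (adjusted p = 0.0523 to 0.102). Sox9a had a difference of 1.60 (SE 1.19, adjusted p = 0.313), which passed with the library number as a block (adjusted p = 0.00177). That pairing by number was taken from the data, where sox9a itself moves with the number, and not from the labels. The blocked fit called 3 members and 44.5% of all genes higher and 0 members and 6.16% of all genes lower. Without the libraries numbered 1 the difference of sox9a was 1.91, given with no p, since sox9a prompted leaving them out. That fit called 7.02% of all genes higher and 3.45% lower. Sox9b, sox6, matn4 and acana had differences of 0.20, 0.59, −0.65 and 0.32, with adjusted p from 0.155 to 0.881. The libraries of the groups did not overlap for 3 of the 7 members as higher (sox5, sox6 and hapln1a) and for 0 as lower, where this held for 38.5% and 5.75% of all genes.

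Against sox10-only cells, 1 of the 7 members was higher, where 3.4% of all genes were, and 0 were lower, where 10% were (0 at an unadjusted p under 0.05). Hapln1a was higher by 1.46 (SE 0.40, adjusted p = 0.0265), 2.65-fold on means of 706 ± 95.8 TPM in all-arch and 266 ± 103 TPM in sox10-only cells (SD, n = 3 each). With median-of-ratios rescaling, 485 higher and 1430 lower of all genes became 952 and 1680. The hapln1a call did not hold when any of the 3 all-arch libraries or the 20 or 28 hpf sox10-only library was left out, with adjusted p from 0.0642 to 0.123. Sox9a had a difference of 2.26 (SE 1.19, adjusted p = 0.366) and sox9b one of −1.23 (SE 0.98, adjusted p = 0.644). With the library number as a block, sox9a passed as higher (adjusted p = 9.19e-06) and sox9b as lower (adjusted p = 0.0165), where 5.99% and 14.6% of all genes were higher and lower. Without the libraries numbered 1, among them the 20 hpf sox10-only library, sox9a had a difference of 2.19. It is given with no p, since sox9a prompted leaving them out. That fit called 3.52% of all genes higher and 10.4% lower. The libraries did not overlap for hapln1a as higher and for sox6 as lower, 1 member each of the 7, where this held for 10.8% and 20.6% of all genes.

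The stage of this control was varied as well. With the 36 hpf sox10-only library alone, matn4 was lower in all-arch cells by a log2 of −2.32 (adjusted p = 0.0280), where 7.27% of all genes were lower and 1.47% higher. Hapln1a had a difference of 0.87 (adjusted p = 0.861). Acana had one of −2.25, for which no p is given, since it passed the filter through that library. A single library is assumed there to vary like the other groups.

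**Figure D4:**
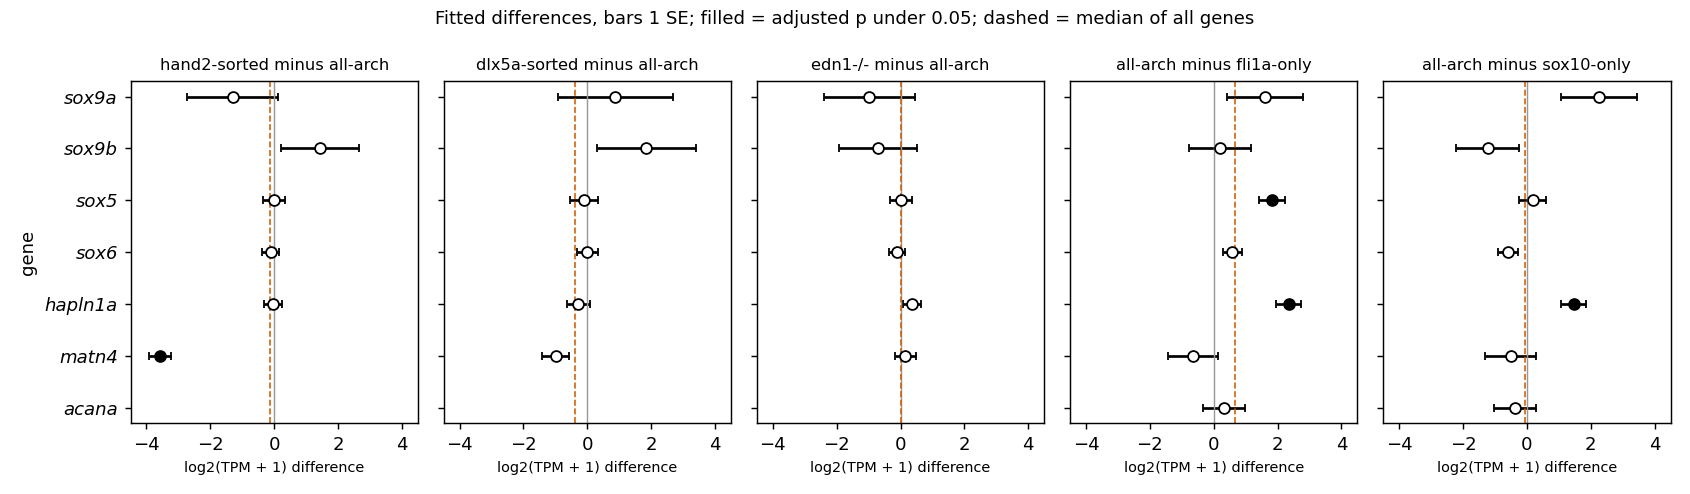
Fitted difference in log2(TPM + 1) of each member tested, with error bars of 1 SE, in the 5 comparisons with a shared estimate of the spread, and the median over all genes as a line. Hapln1a and sox5 stand out against fli1a-only cells, and matn4 lies at −3.57 in hand2-sorted cells.

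The hand2 gene encodes a transcription factor of the ventral arches, from which the lower jaw forms, and it was at 34428 and 25347 TPM in hand2-sorted cells, against 639 to 856 TPM in all-arch cells. Against all-arch cells, matn4 was the 1 member called lower of 6 tested, where 1.26% of 13206 genes were lower, and 0 members were higher, where 0.295% were (0 at an unadjusted p under 0.05). The difference for matn4 was −3.57 (SE 0.33, adjusted p = 0.00707), which is 18.2-fold lower, on means of 1.98 ± 0.15 TPM in hand2-sorted cells (SD, n = 2) and 36.0 ± 13.5 TPM in all-arch cells (SD, n = 3). On the deposited scale the 39 higher and 166 lower of all genes became 44 and 83. The libraries did not overlap for matn4, as for 15.7% of all genes in that direction. Matn4 was not called without hand2-sorted replicate 1, nor without all libraries numbered 1, where its difference was −3.59. Each of these fits leaves 1 hand2-sorted library, so neither can decide the call. Sox5, sox6 and hapln1a had differences of 0.01, −0.11 and −0.03. Sox9a had one of −1.30 (SE 1.42, adjusted p = 0.829) and sox9b one of 1.43 (SE 1.22, adjusted p = 0.776). Acana, tested with no filter, had a difference of −0.70 (adjusted p = 0.367).

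Summed epithelial and neuronal markers were higher in both hand2-sorted libraries than in all-arch cells. The 7 epithelial markers summed to 1903 and 1848 TPM, against 150, 93.4 and 1064 TPM in all-arch cells, with cdh1 and tp63 under 1 TPM in all 5 libraries. The 7 neuronal markers summed to 444 and 605 TPM, against 32.2, 133 and 48.8 TPM, with elavl4 and sncb under 1 TPM in all 5. Most of the neuronal sum was phox2bb, at 440 ± 151 TPM in hand2-sorted cells (SD, n = 2) and 27.2 ± 16.5 TPM in all-arch cells (SD, n = 3). It was the 1 neuronal marker called higher of 5 tested. Ear and notochord sums were also higher in both hand2-sorted libraries. The 9 ear markers summed to 56.4 and 53.7 TPM, against 16.7, 21.0 and 21.5 TPM in all-arch cells. Otomp, stm, hmx3a, pax2a, pax8, tecta and otogl were under 1 TPM in both hand2-sorted libraries. Most of the ear sum was oc90, at 44.9 ± 2.24 TPM (SD, n = 2) against 16.6 ± 2.70 TPM (SD, n = 3). It was the 1 ear marker called higher of 4 tested. The 5 notochord markers summed to 18.0 and 18.0 TPM, against 7.20, 6.07 and 14.9 TPM, and 0 of 3 tested were called. Noto and entpd5a were under 1 TPM in all 5 libraries. Sums of blood, muscle, pigment, endothelial, and glial and progenitor markers overlapped between the groups. The part of other cell types in the level of matn4 was not tested.

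Matn4 was not the only matrix gene low in hand2-sorted cells. Of 10 other cartilage matrix genes tested, 3 were lower and 0 higher, where 1.26% and 0.295% of all genes were. Fmoda, which encodes the collagen-binding proteoglycan fibromodulin, was lower by −4.05 (24.5 ± 5.58 TPM in hand2-sorted and 429 ± 131 TPM in all-arch cells, adjusted p = 0.00520). Lect1, which encodes chondromodulin, was lower by −3.44 (adjusted p = 0.0128), and dcn, the decorin gene, by −1.79 (adjusted p = 0.0341). Of 11 bone cell genes tested, 3 were lower: cdh11 by −2.94, bmp2b by −1.99 and sparc by −1.62 (adjusted p = 0.00642, 0.0221 and 0.0444). The median over both lists was −0.16 and −0.22, against −0.12 over all genes. None of 22 genes of chondroitin and proteoglycan synthesis was called. With the library number as a block, 5 bone cell genes were lower and 1 higher, where 2.18% of all genes were lower and 0.707% higher, and the matrix counts were the same. Every one of these calls ended without the libraries numbered 1. That fit leaves 1 library in each group but all-arch, so the loss cannot decide whether the calls rest on those libraries.

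The dlx5a gene encodes a homeobox factor of the ventral and intermediate arch. In the dlx5a-sorted library 0 of 6 members tested were called, where 0.0757% of genes were higher and 0.318% lower (0 members at an unadjusted p under 0.05). Matn4 had a difference of −0.99 (SE 0.42, adjusted p = 0.300), and sox9b one of 1.85 (SE 1.55, adjusted p = 0.561). The lone library is assumed to vary like the other groups. Its 9 ear markers summed to 145 TPM, against 16.7, 21.0 and 21.5 TPM in all-arch cells, with hmx3a, tecta and otogl under 1 TPM in it. Hmx2 was at 44.9 TPM, against 1.44 TPM on average. Its epithelial (1542 TPM) and glial and progenitor sums (343 TPM) also lay above every all-arch library. Its endothelial, blood, muscle and notochord sums lay below every one. The part of other cell types in its sox9a and sox9b levels was not tested. Hapln1a differed by −0.28, against a median over all genes of −0.38. The 10 higher and 42 lower of all genes became 37 and 10 on the deposited scale and 39 and 37 with median-of-ratios rescaling.

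In edn1-/- arches, which lack the Endothelin 1 signal of the ventral arches, limma called 0 of the 6 members, where 0.0% of all genes were higher and 0.00757%, which is 1 gene, lower. At an unadjusted p under 0.05 there were 368 of 13206 genes and 0 members. Hapln1a had a difference of 0.35 (SE 0.29, adjusted p = 0.9999), matn4 one of 0.15 (SE 0.33) and sox5 one of 0.03 (SE 0.34). Sox9a had −0.98 (SE 1.42) and sox9b −0.71 (SE 1.22), and the low value in each group was again the library numbered 1. Both errors are larger than the differences, so the fit does not show the direction of either gene.

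Comparisons of 1 library with 1 library have no replicate check, and no p is given. A gene was counted when it differed by a log2 of at least 1 with at least 10 TPM in the higher library.

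Between jag1b-/- and jag1b+/+ arches, 0 members were past this rule, where 0.192% of 5718 genes were higher and 0.7% lower. Hapln1a was at 969.5 and 759 TPM, a log2 difference of 0.35, and sox5 at 53.2 and 42.7 TPM, one of 0.31. Sox9a was at 17.3 and 23.3 TPM, sox9b at 58.4 and 54.0 TPM, and matn4 at 32.5 and 32.0 TPM. Acana was at 3.49 TPM in jag1b-/- and 2.27 TPM in jag1b+/+ arches, the highest values among arch libraries. Hapln1a and runx2a were the members whose difference exceeded the range over the 3 all-arch libraries (0.34 and 0.02), with runx2a under 0.1 TPM in both.

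With UAS:Edn1 against Gal4 alone, 1 member was past the rule as higher, where 2.42% of 5960 genes were, and 0 as lower, where 1.29% were. Hapln1a was at 748 TPM, against 333 TPM with Gal4 alone, 2.24-fold higher, a log2 difference of 1.17 that exceeds its all-arch range of 0.34. The median over genes was 0.22. With median-of-ratios rescaling the difference was 0.94, below the rule, and 144 higher and 77 lower of all genes became 68 and 116. The Gal4 library is the lowest arch library for hapln1a, and its blood markers summed to 4240 TPM, against 506 TPM with UAS:Edn1. In all-arch replicates 1, 2 and 3 these markers summed to 368, 6821 and 778 TPM, with hapln1a at 658, 816 and 644 TPM. The part of blood cells in the hapln1a difference was not tested. Matn4 was at 27.7 and 15.4 TPM, and sox5 at 37.9 and 22.8 TPM. Their log2 differences, 0.81 and 0.71, were smaller than the spread over the all-arch libraries (0.98 and 0.74), although the Gal4 values lay below every all-arch library. Of 5 other chondrogenic regulators at 10 TPM or more, ctgfa, a connective tissue growth factor gene, was past the rule, at 807 TPM with UAS:Edn1 and 344 TPM with Gal4 alone.

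With UAS:Nicd against Gal4 alone, 1 member was past the rule as lower, where 2.09% of 6037 genes were, and 0 as higher, where 5.04% were. Sox9a was at 6.49 TPM, against 14.7 TPM, a log2 difference of −1.07, and 6.49 TPM was its lowest value in any arch library. The difference is smaller than the spread of 3.04 over the all-arch libraries. That spread lies between replicate 1, at 25.4 TPM, and replicates 2 and 3, at 203 and 215 TPM, so it is a poor yardstick for this pair. Hapln1a was at 365 and 333 TPM, sox5 at 24.5 and 22.8 TPM and matn4 at 11.5 and 15.4 TPM. Of 5 other chondrogenic regulators at 10 TPM or more, 1 was past the rule as higher and 2 as lower. Nkx3.2, a jaw joint factor, was at 6.75 TPM with UAS:Nicd and 74.9 TPM with Gal4 alone, and barx1, a factor that promotes arch cartilage, at 80.4 and 400 TPM. Zeb2a was at 48.4 and 12.5 TPM, sox10 at 304 and 64.5 TPM, and vcanb, a versican gene, at 22.2 and 6.53 TPM. Summed arch neural crest markers were at 2105 TPM with UAS:Nicd, against 4234 TPM with Gal4 alone. Of these 10 markers, 4 were past the rule as lower (hand2, dlx5a, barx1 and foxd1) and 0 as higher. The median log2 difference of the 10 was −0.46, against 0.15 over all genes. Summed glial and progenitor markers were at 1180 TPM, against 226 TPM, with mbpa under 1 TPM in both. Endothelial, ear, pigment, epithelial and muscle sums were also higher with UAS:Nicd, and blood, neuronal and notochord sums lower. The part of these marker sets in the differences was not tested.

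**Figure D5:**
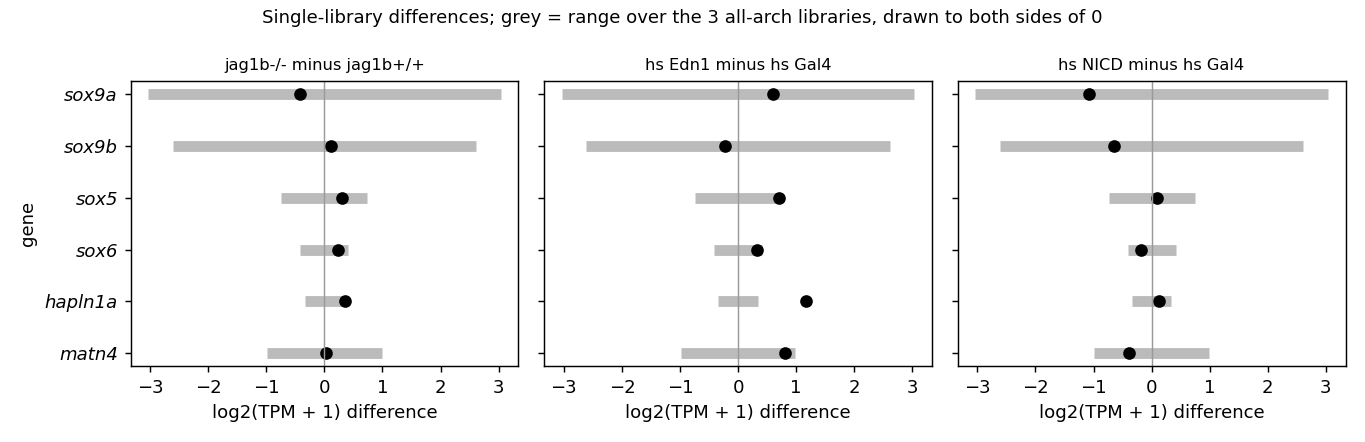
Difference in log2(TPM + 1) between single libraries of the 6 members at 1 TPM or more in every library, with the range over the 3 all-arch libraries as grey bars drawn to both sides of 0. Hapln1a with UAS:Edn1 lies at 1.17, outside its bar, and sox9a with UAS:Nicd at −1.07, inside its bar. The bar of sox9a is wide because of the low value in all-arch replicate 1.

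Other genes of the pathway gave the setting for the all-arch comparisons. The share of all genes called was 4.16% higher and 2.89% lower against fli1a-only cells, and 3.4% higher and 10% lower against sox10-only cells. With the library number as a block these shares were 44.5% and 6.16%, and 5.99% and 14.6%. Of 10 other chondrogenic regulators tested, 2 were higher and 0 lower in all-arch than in fli1a-only cells (3 and 0 with the block), and 3 were higher and 2 lower than in sox10-only cells, also with the block. Barx1 was at 699 ± 163 TPM in all-arch cells, against 49.2 ± 22.6 TPM in fli1a-only and 23.8 ± 7.19 TPM in sox10-only cells (SD, n = 3 each, log2 3.89 and 4.83). Nkx3.2 was higher than in sox10-only cells by 2.20 and zeb2a lower by −3.33 (adjusted p = 0.00963 and 5.63e-05).

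Of 12 other cartilage matrix genes tested, 2 were higher in all-arch than in sox10-only cells, fmoda and dcn, by 4.61 and 4.18 (adjusted p = 2.66e-05 and 2.04e-05), and 0 lower. Part of this list passed the filter through the 36 hpf sox10-only library, which sets the sign of those genes against sox10-only cells. Signs and the median of the list are therefore not given for that comparison. Hapln3, a link protein paralog, was lower than in fli1a-only cells by −2.83 (adjusted p = 0.00329), and 0 of the 12 were higher. With the block, 1 was higher and 1 lower against fli1a-only cells, and 3 higher and 1 lower against sox10-only cells. Of 22 synthesis genes, has2, a hyaluronan synthase, was higher than in sox10-only cells by 2.58, with 2 lower, chst11 and papss2a, each by −1.68. Against fli1a-only cells 0 synthesis genes were called, but 12 of 22 were higher with the block. Among bone cell genes, cdh11 was higher than in fli1a-only cells by 1.52 and than in sox10-only cells by 2.46. Bmp2b was also higher than in sox10-only cells (1.44), and bmp2a lower (−1.15). With the block, 6 of 10 bone cell genes were higher than in fli1a-only cells, and 5 higher and 1 lower than in sox10-only cells. Bglap, bglapl, mgp, spp1 and panx3 stayed under 1 TPM in all libraries. Of 10 Sox and Runx relatives, 3 were higher than in fli1a-only cells (sox10, sox11a and sox8b). Lower than in sox10-only cells were 4 (sox10, sox8a, sox8b and sox13). Sox10 is itself the gene of a reporter by which these groups were sorted, so its calls are no independent result. With the block, 5 were higher and 2 lower than in fli1a-only cells, and 1 higher and 6 lower than in sox10-only cells. The genes of this paragraph that had under 10 TPM in both groups (chst11, papss2a, sox8a, sox13 and sox8b against fli1a-only cells) were named after their values were seen. No gene of Ihh and PTHrP signalling, the growth plate pathway, passed the filter.

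Likeness was measured as Pearson's r over 11 group means of log2(TPM + 1) among 8434 genes, as a description, since the groups share preparation and sorting. Among members, sox5 was most like hapln1a (r = 0.90) and sox6 (0.73), and matn4 most like acana (0.52) of the members at 1 TPM or more in some group. Sox9a and sox9b had an r of 0.38. Over all genes, hapln1a was nearest to CR769782.2 (0.97), cishb and rcn2 (0.95 each), and sox5 to det1, dynll2b (0.97 each) and srsf6b (0.96). Matn4 was nearest to rgs4, col9a1a and wfdc2 (0.90 each). Sox9a was nearest to si:dkey-261m9.7 (0.94), fkbp7 (0.93) and fbxo5 (0.91), sox9b to C4H11orf98 (0.89), fgfbp1b (0.87) and id2b (0.83), and sox6 to nanp (0.95), lgi1a and zgc:136892 (0.92 each).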

How the data were processed

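Zebrafish cells were sorted by reporters, and RNA was extracted with RNeasy Micro, made into cDNA with SMARTer and read as paired ends on HiSeq and NextSeq machines, per the labels' protocols. The machine used for each library was not given, so it was not treated as a batch. The submitters' processing notes name the build GRCz10 and the tools TopHat2 and Partek, without versions. The authors deposited TPM for 31953 genes. Each column summed to about 93168 and was multiplied by 10.7333 to reach 1000000.

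Libraries were grouped by their labels, and columns were matched by name. The labels do not give the clutch of origin, so a p-value reflects library-to-library spread alone, part of which may be technical. Log2(TPM + 1) was tested with limma 3.58.1 in R 4.3.3 (trend, robust, 2-sided, Benjamini-Hochberg adjusted, threshold 0.05) over genes with a mean of at least 1 TPM. The first fit took the all-arch libraries with both control sorts, and a second held all-arch, hand2-sorted, dlx5a-sorted and edn1-/- libraries. The code was tested on simulated data. Comparisons of single libraries used a log2 difference of at least 1 and at least 10 TPM.

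Same-numbered libraries of the first fit deviated together (correlations across genes of 0.442 to 0.739), so the number was treated as pairing them, as a hint from the data and not from the labels. Members and lists were chosen with earlier results of these data known. Genes were named from those called in each list with at least 10 TPM in the higher group, at most 4 per comparison. Not every such gene is named, so an unnamed gene may have been called. The 3 genes most like each member of at least 1 TPM were named as well. Results for 1 gene of the bone cell list are not reported here. Alternatives were another pseudocount, no filter, other scalings, globin genes left out, the number as a block, 1 library left out, and the 36 hpf sox10-only library alone. Leaving out all libraries numbered 1 was added after seeing the data. In the second fit this leaves 1 library in each group but all-arch, so a call lost there decides nothing.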

Additional observations from a re-analysis of the deposited data

How the results depend on the processing

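No member with a call changed its direction. The counts of all genes moved with several choices, and the balance of higher and lower calls turned for fli1a-only cells, the dlx5a-sorted library and UAS:Edn1. For all-arch against fli1a-only cells, 594 higher and 412 lower became 205 higher with no filter, 242 and 1027 with median-of-ratios rescaling, 182 and 772 without globin genes, 6353 and 879 with the library number as a block, and 1016 higher without libraries numbered 1. Members called higher there went to 1 with no filter (sox5 lost) and 1 without globin genes. Leaving out 1 library gave 93 to 4320 genes and 1 to 2 members higher.

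For all-arch against sox10-only cells, 485 higher and 1430 lower became 2460 lower with no filter, 952 higher with median-of-ratios rescaling, 855 higher with the block and 207 higher with the 36 hpf library alone. Members called became 2 higher and 1 lower with the block, where 5.99% of all genes were higher and 14.6% lower. Member counts also moved with the 36 hpf library alone, where acana was tested because of that library. Leaving out 1 library gave 344 to 486 genes and 0 to 1 members higher. Without libraries numbered 1, hapln1a was not called (1.29, adjusted p = 0.163).

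For hand2-sorted cells, 39 higher and 166 lower became 24 higher with a pseudocount of 0.1, 83 lower on the deposited scale, 64 lower with no filter, 94 and 290 with the block, and 0 and 0, with 0 members lower, without libraries numbered 1. Leaving out 1 library gave 8 to 14 genes higher, 24 to 54 lower and 0 to 1 members lower. For the dlx5a-sorted library, 10 higher and 42 lower became 2 and 68 with a pseudocount of 0.1, 37 and 10 on the deposited scale, 192 higher with no filter, 39 higher with median-of-ratios rescaling, and 0 and 0 without libraries numbered 1. Leaving out 1 library gave 0 to 2 higher and 0 to 6 lower. For edn1-/- arches, 0 higher and 1 lower became 0 lower on the deposited scale, 1 higher with no filter, 3 lower with median-of-ratios rescaling and 0 lower without libraries numbered 1. Leaving out 1 library gave 0 to 3 higher and 0 to 1 lower. In this second fit only 2 pairs share a number (correlations of 0.335 to 0.616), and the dlx5a-sorted library, which has none, was left out of the block. The block changed no member's call there, and gave matn4 a difference of −3.30 (adjusted p = 0.00526).

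For jag1b-/- arches, 11 higher and 40 lower became 3 and 22 on the deposited scale and 24 and 64 with a minimum of 5 TPM. For UAS:Edn1, 144 and 77 became 47 and 31 on the deposited scale, 133 lower with a minimum of 5 TPM, and 68 and 116, with 0 members higher, after median-of-ratios rescaling (hapln1a at 0.94). For UAS:Nicd, 304 and 126 became 122 and 54, with 0 members lower, on the deposited scale (sox9a at −0.56), and 209 lower with a minimum of 5 TPM. The cause of these changes was not tested.

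Every other recomputed count of all genes or of members stayed within 1.5 times its value. Counts in the gene lists were recomputed with the block alone and stand beside them. Depth is unknown, each group holds 1 to 3 libraries, and the Runx genes and acana are too low for their differences to be shown. Log ratios of the Runx genes were not run for that reason. Library number and stage coincide in sox10-only cells, so the block there cannot tell them apart.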
